A study of Mus musculus with 4 samples.

Results

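The Zfp900-series genes are mouse genes whose symbols run from Zfp900 to Zfp999. Most encode proteins with arrays of C2H2 zinc fingers. They were measured by RNA sequencing in 4T1, a mouse mammary carcinoma line of epithelial cells with the genotype given as WT. Cells received PBS or recombinant IL-17A (rIL17), a cytokine made by T cells and innate lymphocytes, with 2 libraries per group. The sources used here give neither the dose of IL-17A nor its duration. All libraries come from 1 cell line, and the labels do not say whether replicate libraries are separate cultures, so their spread may be technical. Of the 21840 genes in the table, 50 carry a symbol of the series. A further 14 symbols of the series in the annotation were not analysed here. The series was chosen by the measured difference between the groups: the normalized counts of Zfp979 and Zfp944 were higher in rIL17 than in PBS. Differences between rIL17 and PBS are therefore given as descriptions of the libraries. Where a fit over the whole table called members, the call is a description too and supports nothing about the series.

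Zinc-finger proteins of this kind bind DNA through their finger arrays, each finger contacting a few bases. Many carry a KRAB domain at the amino terminus, which recruits the scaffold protein TRIM28 and through it the histone methyltransferase SETDB1, so that the bound site is silenced. Many targets are transposable elements. Mouse KRAB zinc-finger genes lie in clusters that grew by tandem duplication, and neighbours often differ mainly in their fingers.

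The 50 members lie on 11 chromosomes, with coordinates on mm10. When members less than 1000000 bases apart were joined, 31 fell into 5 clusters and 19 stood alone. The cluster on chromosome 17 (21567008 to 22867134) holds 9 members, among them Zfp944 (ENSMUSG00000033972, 22337989 to 22361400, minus strand). The one on chromosome 4 (146502027 to 147848366) holds 8, among them Zfp979 (ENSMUSG00000066000, 147611937 to 147642513, minus strand). The cluster on chromosome 2 (175372436 to 178078476) holds 9. Of the 50 genes, 49 are annotated as protein-coding and Zfp939 as a transcribed pseudogene. In translations of the longest annotated coding sequence, a letter pattern for C2H2 fingers matched 0 to 21 times per protein, with a median of 11. Zfp979 had 3 matches in 407 residues and Zfp944 had 11 in 492. Fingers that depart from the pattern are not counted. A letter pattern for the KRAB box was found in 35 of 49 proteins, Zfp944 included. It was not found in Zfp979, which says only that these letters are not in the annotated protein.

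Promoter windows, 250 bases before to 50 after a transcript start, were taken from RefSeq (GRCm38.p6) and matched for 45 of 50 members. Those of Zfp979 and Zfp944, which led to the choice of the set, are shown with that of a neighbour in the same cluster, and with that of Zfp956, the one member whose rIL17 libraries both lay below both PBS libraries. They are written 5′ to 3′ on the gene's strand, with capitals for GGGCGG (or its reverse complement) and TAATTA.
Zfp979, chr4:147642459-147642758, minus strand: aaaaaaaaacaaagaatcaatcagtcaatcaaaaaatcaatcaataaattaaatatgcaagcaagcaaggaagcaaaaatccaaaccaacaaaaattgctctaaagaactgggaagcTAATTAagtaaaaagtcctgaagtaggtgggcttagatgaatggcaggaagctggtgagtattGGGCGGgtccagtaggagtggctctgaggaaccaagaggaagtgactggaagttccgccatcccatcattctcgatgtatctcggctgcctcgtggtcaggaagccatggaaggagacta
Zfp984, chr4:147809739-147810038, minus strand: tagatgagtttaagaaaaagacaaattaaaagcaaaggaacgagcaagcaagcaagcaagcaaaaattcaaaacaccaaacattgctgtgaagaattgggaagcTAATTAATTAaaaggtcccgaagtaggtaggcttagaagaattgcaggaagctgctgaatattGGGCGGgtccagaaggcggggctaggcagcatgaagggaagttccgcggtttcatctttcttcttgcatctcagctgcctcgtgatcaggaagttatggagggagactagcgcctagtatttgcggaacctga
Zfp944, chr17:22361351-22361650, minus strand: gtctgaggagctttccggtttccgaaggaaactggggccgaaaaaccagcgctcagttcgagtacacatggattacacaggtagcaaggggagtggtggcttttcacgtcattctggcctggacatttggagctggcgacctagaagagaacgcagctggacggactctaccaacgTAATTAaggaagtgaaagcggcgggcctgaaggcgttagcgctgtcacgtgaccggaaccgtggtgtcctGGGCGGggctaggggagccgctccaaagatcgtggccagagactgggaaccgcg
Zfp942, chr17:21962415-21962714, minus strand: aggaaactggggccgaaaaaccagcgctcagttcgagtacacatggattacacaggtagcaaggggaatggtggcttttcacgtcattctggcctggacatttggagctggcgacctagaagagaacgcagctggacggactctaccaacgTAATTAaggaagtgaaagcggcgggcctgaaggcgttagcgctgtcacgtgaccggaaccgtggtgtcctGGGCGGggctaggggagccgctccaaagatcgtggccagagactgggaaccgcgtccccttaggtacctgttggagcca
Zfp956, chr6:47953140-47953439, plus strand: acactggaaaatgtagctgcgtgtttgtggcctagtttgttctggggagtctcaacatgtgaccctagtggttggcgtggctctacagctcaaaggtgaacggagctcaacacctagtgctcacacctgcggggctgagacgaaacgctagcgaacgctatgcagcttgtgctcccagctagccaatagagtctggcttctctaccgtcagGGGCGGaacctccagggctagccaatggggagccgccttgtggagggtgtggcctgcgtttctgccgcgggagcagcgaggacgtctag

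The windows of Zfp942 and Zfp944 were identical at 274 of 275 aligned bases, and those of Zfp979 and Zfp984 at 219 of 273. Of 990 pairs of member windows, 53 were at least 75% identical over 150 or more aligned bases, and in 45 of those pairs both genes belong to the same cluster. In the chromosome 2 cluster the windows of Zfp965 and Zfp973 did not differ over 260 aligned bases. The windows of Zfp942 and Zfp943, which point away from each other, share 194 bases, and the annotated starts of these genes are 88 bases apart. The letters TAATTA, a core bound by homeodomain proteins, occurred in 11 of 53 member windows (20.8%) and in 5.3% of all 32851 RefSeq windows. Except for that of Zfp952, these windows belong to the clusters on chromosomes 4 and 17, where windows resemble each other, so they are not independent. The GC box letters GGGCGG were in 35.8% of member windows and 35.7% of all windows. For letters tied to factors downstream of IL-17A, TGANTCA (AP-1) was in 0 of 53 member windows and 7.8% of all. TTGCNNAA (C/EBP) was in 7.5% and 10.8%, and a loose NF-kB motif in 41.5% and 50.8%. Both strands were searched, the letter sets can overlap, and they were chosen after the windows had been read. A match is a description of the letters and not a binding site.

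Depth was alike in the 4 libraries, with 17511450 to 17970104 reads assigned to genes. Lcn2, encoding lipocalin-2 and a known target of IL-17A, had 8448 and 8498 normalized counts in PBS against 28830 and 28100 in rIL17. Of the epithelial markers all 7 were in the table, with summed normalized counts of 53708 to 57938 in PBS and 45719 to 47774 in rIL17. Of the macrophage markers 4 of 6 were in the table, summed to 121 to 123 in PBS and 123 to 134 in rIL17, nearly all from Cd68 (log2 fold change 0.01). Csf1r had 2.94 and 3.98 in PBS against 1.01 and 3.01 in rIL17, Lyz2 had 2.94 and 0.994 against 11.1 and 2.01, and Ptprc had 0 and 0 against 3.02 and 2.01. Of the fibroblast markers 4 of 6 were in the table, summed to 2408 to 2520 in PBS and 2941 to 2946 in rIL17, nearly all from Pdgfra. Dcn had 26.5 and 17.9 in PBS against 62.3 and 46.1 in rIL17, Col1a1 had 51.0 and 37.8 against 29.2 and 30.1, and Col1a2 had at most 2.01 in any library. The 6 lymphocyte markers were not among the genes of the table. The part of these markers in the members' difference was not tested. In these bulk samples, fewer cells of a kind and less RNA per cell cannot be told apart.

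In both rIL17 libraries, most members of the series had more RNA than in both PBS libraries. This was so for 37 of 50 members, beside 25.4% of all 20677 genes tested. The reverse held for 1 member, Zfp956, beside 20.0% of all genes, and in 12 the groups overlapped. Zfp982 counts among the 37 with 1 read in each of 3 libraries, where scaling alone sets the order. The mean of rIL17 was at least 2 times that of PBS in 27 members, beside 13.0% of genes, and it was below that of PBS in 5. Over all 50 members the median log2 fold change was 1.03 after adding 1 to each normalized count, so that changes of low genes are understated. Over all genes tested it was 0.01. Since the contrast led to the choice of the set, nothing is read from these shares.

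**Figure D1:**
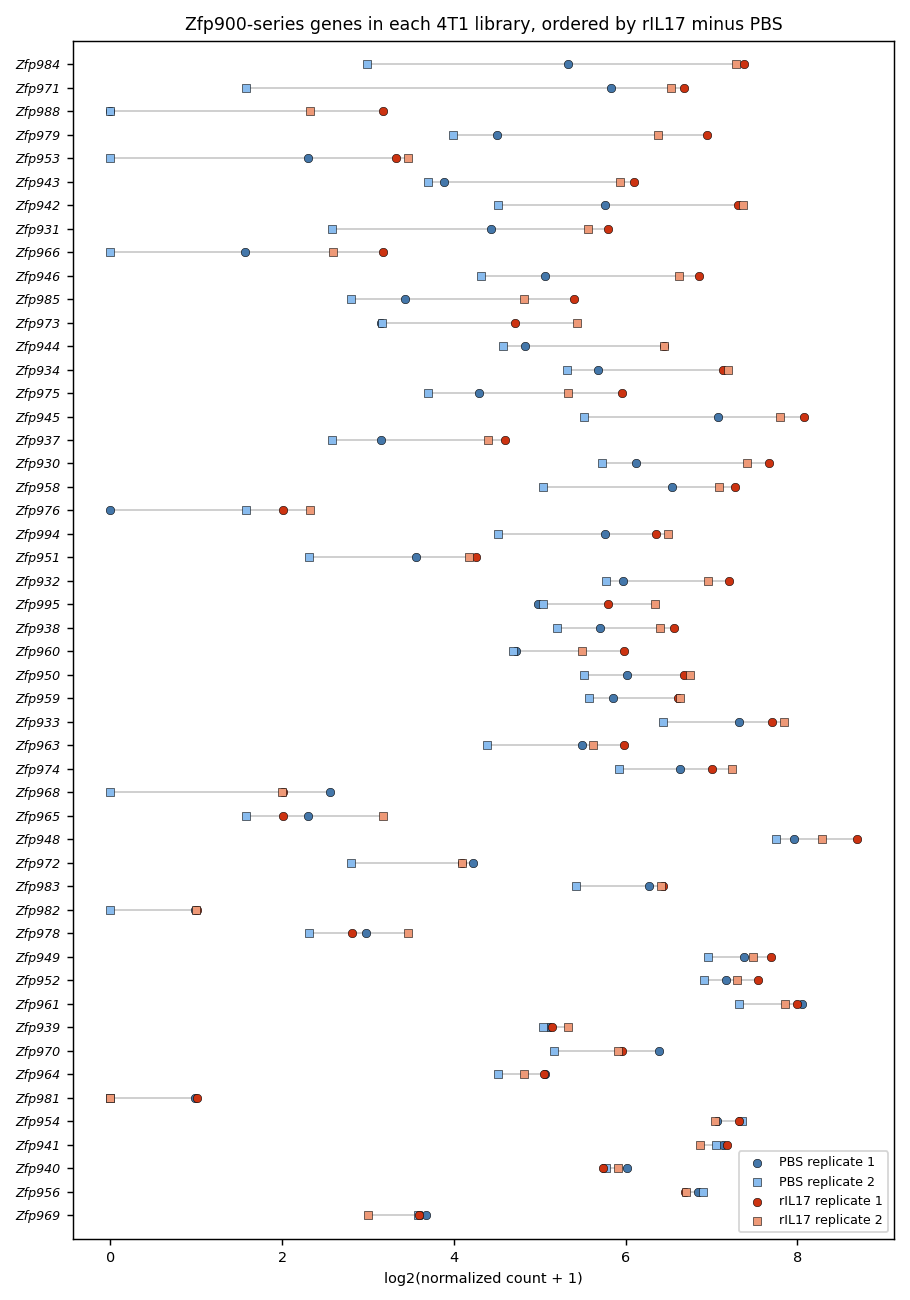
Normalized counts of the 50 members in each library, as log2(normalized count + 1) on the horizontal axis, ordered from the largest to the smallest group difference. Blue marks are the 2 PBS libraries and red marks the 2 rIL17 libraries (circles replicate 1, squares replicate 2); in 37 members both red marks lie to the right of both blue marks, and in 40 the lowest mark is PBS replicate 2.

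Limma called 0 genes of 20677 over the whole table (0% of genes; 2642 had an unadjusted p below 0.05, and limma-voom called 1 gene) and so 0 members. A stricter filter kept genes with at least 10 normalized counts in each library of 1 group or more. Under it limma called 0.807% of 12515 genes (0.623% higher in rIL17) and 5 of the 37 members that pass that filter: Zfp979, Zfp944, Zfp943, Zfp930 and Zfp934, each higher in rIL17. A GC correction removed from each library the smooth trend of its values with the GC content of the transcripts. With this correction and the stricter filter it called 3 members, Zfp930, Zfp942 and Zfp946, beside 2.41% of genes. A total of 13 members did not pass the stricter filter, among them Zfp981, which also fell below the filter of the whole-table fit. The 5 called members are a description here, because this is the contrast from which the set was chosen. Under the stricter filter, leaving out PBS replicate 1 gave 29 called members beside 22.2% of all genes, and leaving out PBS replicate 2 gave 15 beside 5.52%. Leaving out rIL17 replicate 1 gave 0 beside 0.00798% and leaving out rIL17 replicate 2 gave 0 beside 0.008%, 1 gene in each. In these fits the lone library is assumed to vary like those of the other treatment.

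Zfp979 had 21.6 and 14.9 normalized counts in PBS against 123 and 82.2 in rIL17. The groups lay far apart, and the rIL17 libraries differed between themselves by more than the PBS libraries did. Its mean went from 18.2 ± 4.72 to 102 ± 28.6 (SD, n = 2 per group), a ratio of 5.61, with a log2 fold change of 2.42 (SE 0.32). Without PBS replicate 2 the log2 fold change was 2.17, and with the GC correction 1.43. Of the 100-base windows of its longest transcript, 17.0% also occur in transcripts of other genes, most in Zfp978. Reads from those windows can be assigned to another gene or left uncounted, and the size of that error is not known.

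Zfp944 had 27.5 and 22.9 normalized counts in PBS against 86.5 and 86.2 in rIL17. The rIL17 libraries nearly coincided, and both were more than 3 times either PBS library. The mean went from 25.2 ± 3.25 to 86.3 ± 0.143 (SD, n = 2 per group), with a log2 fold change of 1.74 (SE 0.18). Leaving out PBS replicate 2 gave 1.62, and the GC correction gave 1.16. The transcript shares 2.38% of its windows with other genes.

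The other members of the chromosome 17 cluster pointed the same way, and in all 9 both rIL17 libraries lay above both PBS libraries. Zfp943 had 13.7 and 11.9 normalized counts in PBS against 67.4 and 60.2 in rIL17, a ratio of 4.97. Its divergent neighbour Zfp942 had 53.0 and 21.9 in PBS against 158 and 164 in rIL17, a ratio of 4.31. Both genes of the pair were thus higher, and Zfp942 varied more between the PBS libraries. Zfp946 had 32.4 and 18.9 in PBS against 115 and 97.3 in rIL17, and Zfp945 had 133 and 44.8 in PBS against 268 and 222 in rIL17. For Zfp945, whose protein has 18 matches to the finger pattern, the gap between the PBS libraries was 1.56 on the log2 scale and the group difference 1.64. Smaller log2 fold changes were seen for Zfp994 (1.29), Zfp995 (1.06), Zfp948 (0.64) and Zfp983 (0.58). The cluster median was 1.64; leaving out PBS replicate 2 gave 1.09, and the GC correction gave 0.79. The other 16 tested genes inside the same interval had a median of 1.30, and 8 of them had both rIL17 libraries above both PBS libraries.

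In the chromosome 4 cluster the members ranged more widely. Zfp984 had 39.2 and 6.96 normalized counts in PBS against 165 and 154 in rIL17, the largest log2 fold change of all members (3.17, SE 0.88). The PBS libraries differed by 2.34 on the log2 scale, so its size depends on which PBS library is used; without PBS replicate 2 it was 2.00. Zfp985 had 9.81 and 5.97 in PBS against 41.2 and 27.1 in rIL17. Zfp988 had no read in PBS, and 8.04 and 4.01 normalized counts in rIL17, at least 2.03-fold higher when PBS is set to the floor of 3 reads per library. Zfp933 had 159 and 85.5 in PBS against 207 and 229 in rIL17, a ratio of 1.78. Zfp978 (log2 fold change 0.49) had overlapping groups, and Zfp981 and Zfp982 had at most 1 read in any library. Zfp978 and Zfp988 share 56.0% and 44.6% of their windows with transcripts of other genes, and Zfp984 shares 29.9%. The cluster median was 1.44 for the 8 members, beside 0.72 for the 10 other tested genes in the interval. Without PBS replicate 2 these medians were 1.06 and 0.05.

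**Figure D2:**
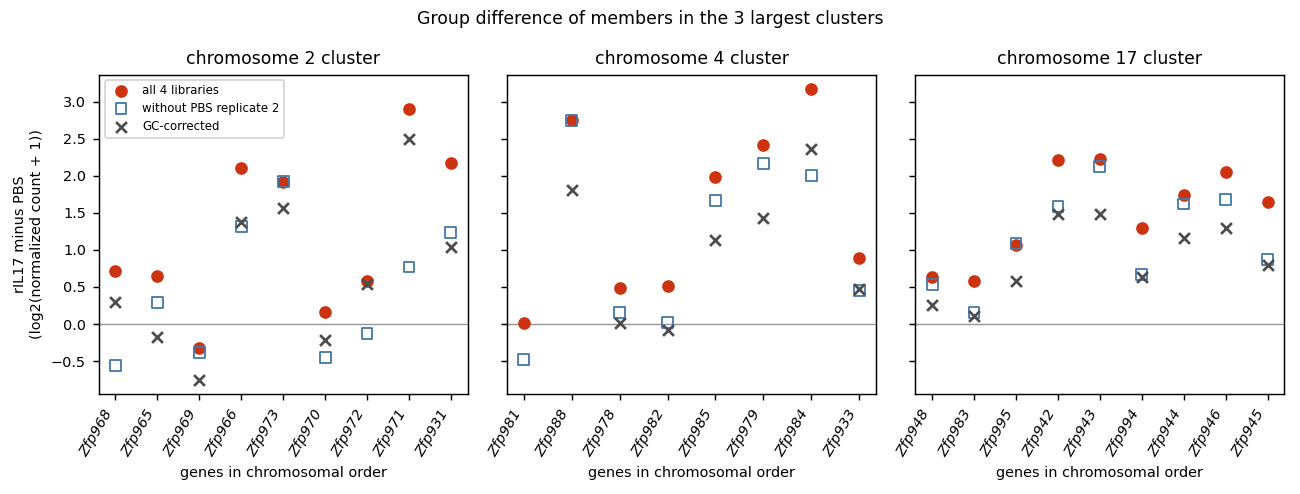
Log2 fold change (rIL17 minus PBS, on log2(normalized count + 1)) of the members in the 3 largest clusters, in chromosomal order. Red circles use all 4 libraries, open blue squares leave out PBS replicate 2 and grey crosses follow the GC correction (none for Zfp981, not tested); the chromosome 17 members lie above 0 in all 3 forms, and those of chromosome 2 lie on both sides.

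The chromosome 2 cluster showed the least uniform picture, with 4 of 9 members having both rIL17 libraries above both PBS libraries. The median was 0.72 for the 9 members and 0.80 for the 37 other tested genes in the interval. Without PBS replicate 2 these medians were 0.29 and 0.45. Zfp971 had 55.9 and 1.99 normalized counts in PBS against 102 and 91.3 in rIL17. PBS replicate 2 alone was near 0, and the log2 fold change of 2.90 was 0.77 without that library. Zfp931 had 20.6 and 4.97 in PBS against 54.3 and 46.1 in rIL17. Zfp973 had 7.85 and 7.96 in PBS against 25.1 and 42.1 in rIL17, so that the PBS libraries coincided (log2 fold change 1.91). Zfp970, with a promoter window 98.9% identical to that of Zfp973, had 82.4 and 34.8 in PBS against 61.3 and 59.2 in rIL17 (log2 fold change 0.16). Zfp969 had a log2 fold change of -0.33, the lowest of all members. Counts are most uncertain here: Zfp965 and Zfp969 share 100% of their windows with other transcripts, Zfp968 98.6%, Zfp966 78.7% and Zfp973 74.9%, so reads of one can be assigned to another or left uncounted.

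Among the 19 members outside clusters, 14 had both rIL17 libraries above both PBS libraries, and their median log2 fold change was 0.90. Zfp934 on chromosome 13 had 50.04 and 38.8 normalized counts in PBS against 140 and 145 in rIL17 (log2 fold change 1.67, SE 0.18). Its exons overlap those of Zfp935, and it shares 14.1% of its windows with other transcripts, most with Zfp808. Zfp930, in a cluster of 3 on chromosome 8, had 68.7 and 51.7 in PBS against 202 and 169 in rIL17 (1.62, SE 0.21), and shares no window with another transcript. For both, the groups lay further apart than the libraries within either group. Over the 15 members that share no window with another transcript, the median was 0.95 and 12 had both rIL17 libraries above both PBS libraries. For the 19 that share over 10% it was 1.21, with 12 so placed. Exons of 11 members, Zfp934 included, overlap those of another gene, and their median was 0.86, with 8 so placed. Among them are Zfp943 (with Gm9772), Zfp984 (Gm20707), Zfp956 (Zfp783), Zfp953 (Gm28041 and Gm28044) and Zfp961 (Cyp4f18). Reads from such exons can be assigned to the other gene or left uncounted.

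The members not described singly elsewhere were all higher on average in rIL17, with log2 fold changes from 0.14 (Zfp964) to 2.25 (Zfp953, with 3.93 and 0 normalized counts in PBS against 9.05 and 10.0 in rIL17). Some differed between the groups by more than the libraries within either group did. Zfp932 had 61.8 and 53.7 in PBS against 147 and 123 in rIL17, a ratio of 2.34, but shares 22.1% of its windows, most with Gm15446. Zfp959, which shares 5.6% of its windows, had 56.9 and 46.7 in PBS against 96.5 and 98.3 in rIL17, a ratio of 1.88. Zfp960 had 25.5 and 24.9 in PBS against 62.3 and 44.1 in rIL17, but shares 68.3% of its windows, most with Zfp97. A total of 7 members had no read in at least 1 library: Zfp953, Zfp966, Zfp968, Zfp976, Zfp981, Zfp982 and Zfp988.

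Of the 6 members with the most reads, all but Zfp945 had a log2 fold change below the median of the series. Zfp948 had 247 and 214 normalized counts in PBS against 413 and 311 in rIL17, a ratio of 1.57. Zfp961 had 265 and 159 in PBS against 253 and 231 in rIL17, and its groups overlapped. Zfp949 had 165 and 123 in PBS against 206 and 178 in rIL17. Zfp952 had 143 and 119 in PBS against 185 and 156 in rIL17, with ratios of 1.33 for Zfp949 and 1.30 for Zfp952. Zfp933 and Zfp945, described above with their clusters, complete the 6. Divided by the length of the longest transcript, the means over the 4 libraries ran from 0.163 normalized counts per kb for Zfp981 to 112 for Zfp948, with a median of 20.0. On that scale Zfp979 was at 23.3 and Zfp944 at 20.0, near the middle of the series.

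Few members were lower in rIL17. Zfp956 had 114 and 118 normalized counts in PBS against 103 and 103 in rIL17, a narrow but separate pair of groups (log2 fold change -0.17, SE 0.11). Zfp954 had 132 and 163 in PBS against 159 and 130 in rIL17 (-0.03). Zfp941 had 139 and 131 in PBS against 144 and 115 in rIL17 (-0.07), and Zfp940 had 63.8 and 53.7 in PBS against 52.3 and 59.2 in rIL17 (-0.07). In these last 3 the groups overlapped. Zfp956 and Zfp954 also have the highest transcript GC contents of the series, 53.9% and 50.1%.

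GC content of the transcripts moved with the group difference. The longest transcripts of the members had a GC content of 33.2% to 53.9% with a median of 39.0%, beside 49.2% over all genes and 45.7% over other genes named Zfp and a number. The 30 members below 40% GC had a median difference of 1.5 on the log2 scale, with both rIL17 libraries above both PBS libraries in 27. The 20 at 40% or more had 0.40, with 10 so placed. Across the 50 members Pearson's r between GC content and log2 fold change was -0.62, and across the 12515 genes of the stricter filter it was -0.44; the points share the same 4 libraries. All tested genes below 40% GC (1507) had a median of 0.60, with both rIL17 libraries above both PBS libraries in 57.8%. Of the 729 that pass the stricter filter, 74.5% were so placed. The other Zfp genes below 40% GC (47) had a median of 1.01, with 41 of the 47 so placed. The difference from PBS was thus not limited to the Zfp900 series. Whether the GC content has a part in the members' difference was not tested. After the GC correction the median of the tested members was 0.54. Below 40% GC it was 0.79 for the tested members, 0.35 for the other Zfp genes and -0.03 for all tested genes. The correction is fitted over all tested genes, so their value near 0 is set by its design. After correction, 39 of 49 members were above 0 and 10 below.

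**Figure D3:**
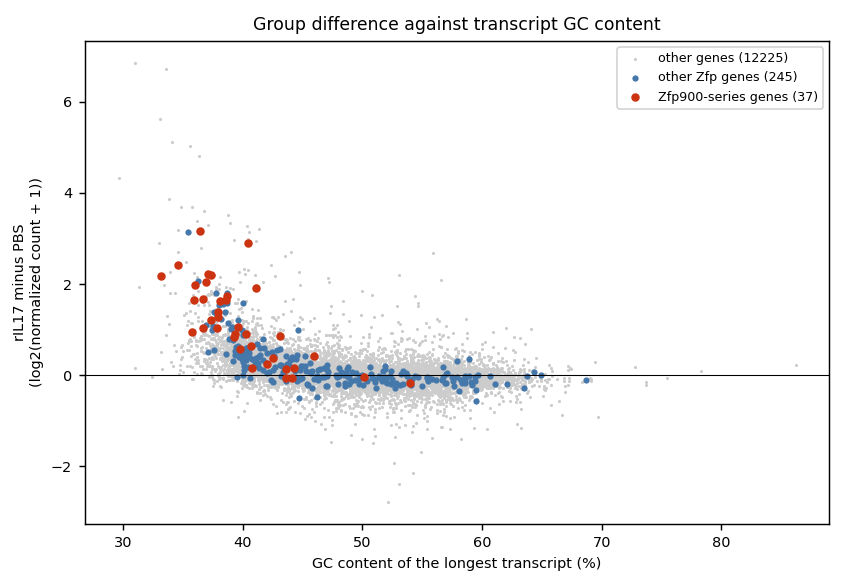
Log2 fold change (rIL17 minus PBS, on log2(normalized count + 1)) against the GC content of the longest transcript for genes that pass the stricter filter. Red points are 37 members, blue points 245 other Zfp genes and grey points other genes; values are higher toward low GC content in all 3 kinds of gene.

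PBS replicate 2 was lower than the other libraries for most members. It was below PBS replicate 1 in 44 of 50 members, beside 9737 of 20677 genes tested. Below 40% GC it was so in 27 of 30 members and 1034 of 1507 tested genes. Of the genes below 40% GC that pass the stricter filter, it was so in 658 of 729, so this was not particular to the members. PBS replicate 2 was the lowest of all 4 libraries in 40 members, and the share over all genes was not computed. The median of PBS replicate 2 minus PBS replicate 1 was -0.59 on the log2 scale over the 50 members, beside 0 over all genes tested. Below 40% GC it was -0.65 over the 30 members, -0.79 over other Zfp genes and -0.41 over all tested genes. The rIL17 libraries were closer, with a median of -0.14 (replicate 2 minus replicate 1). The PBS libraries were at least 1 log2 unit apart in 15 members, and in 18 their gap was at least as large as the group difference. Against PBS replicate 1 alone, the rIL17 mean was higher in 40 members and lower in 10, and the median over the 50 was 0.68; 20 members still had a log2 fold change of at least 1. With the GC correction and without PBS replicate 2 the median over the tested members was 0.34. Below 40% GC it was 0.69 for the tested members and 0.08 for other Zfp genes. Zfp979 (1.53), Zfp944 (1.30), Zfp943 (1.69) and Zfp984 (1.51) were then among those above 1.

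**Figure D4:**
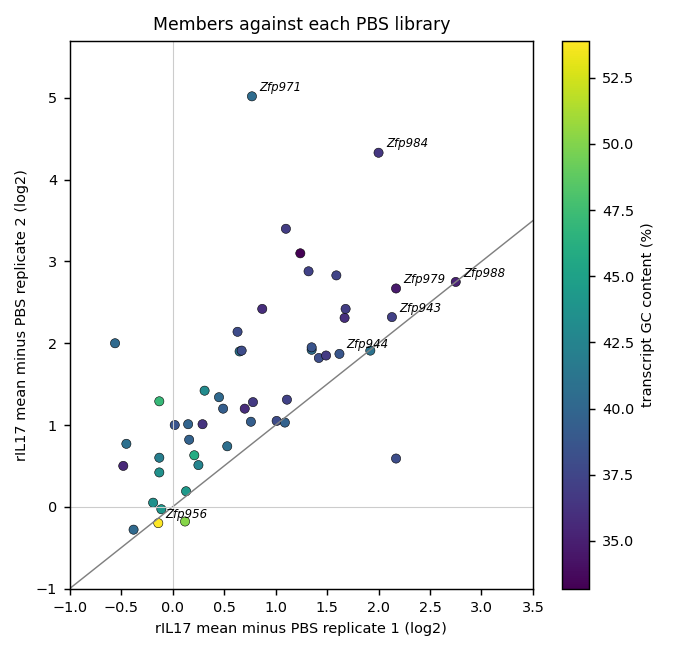
Log2 difference of the rIL17 mean from PBS replicate 1 (horizontal) and from PBS replicate 2 (vertical) for the 50 members, coloured by transcript GC content in percent; the grey line marks equality. Points above the line are the 44 members lower in PBS replicate 2, and Zfp944, Zfp943 and Zfp979 lie near the line while Zfp971 and Zfp984 lie far above it.

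Of 24 genes for the machinery through which KRAB zinc-finger proteins act, TRIM28 and its partners, 17 were higher on average in rIL17. Over all genes tested that share was 52.8%. The median log2 fold change of the 24 was 0.16 (0.04 with the GC correction). Limma called 0 of the 24 over all genes, where it called no gene at all. Under the stricter filter it called 0, beside 0.807% of genes. An unadjusted limma p below 0.05 was found for 3 of the 24, beside 2642 of the 20677 genes tested. At these background shares neither the counts of 0 nor the 3 genes say anything about the list. Trim28, encoding the scaffold that KRAB domains recruit, had 9766 and 10080 normalized counts in PBS against 9244 and 9674 in rIL17. Setdb1, encoding the methyltransferase, had 1596 and 1563 in PBS against 1529 and 1688 in rIL17. Dnmt3a, encoding a DNA methyltransferase, had 953 and 947 in PBS against 759 and 816 in rIL17 (limma adjusted p = 0.373). Tasor (Fam208a in the table), encoding a subunit of the silencing complex HUSH, had 347 and 229 in PBS against 458 and 476 in rIL17 (limma adjusted p = 0.373). Chd3, encoding a chromatin remodeller, had 4205 and 4400 in PBS against 4756 and 4829 in rIL17 (limma adjusted p = 0.373). The log2 fold change of Tasor was 0.73, and 0.17 with the GC correction. For Dnmt3a these values were -0.27 and -0.24, and for Chd3 0.16 and 0.21. For Setdb1 the groups overlapped, and for the other 4 named genes they did not.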

How the data were processed

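RNA of 4T1 cells was sequenced in 4 libraries, 2 given PBS and 2 given recombinant IL-17A. The submitters' processing notes list CASAVA, HISAT2 2.0.5, featureCounts 1.5.0-p3 and mm10. The annotation release, strand setting and scaling tool were not given in the sources used here. The deposited values are a normalized signal, termed normalized counts here. In each library 100.0% of the deposited values are whole multiples (within 0.001) of a step of 0.9811 to 1.0053. Division by that step gives 17511450 to 17970104 reads per library, so the floor of 3 reads used for a count of 0 is near 3 normalized counts.

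Limma 3.58.1 in R 4.3.3, with a mean-variance trend and treatment as the only term, was fitted to log2 of the deposited values plus 1. Genes averaging 1 or more in either group were tested, with Benjamini-Hochberg adjustment over all of them and a threshold of 0.05. A stricter filter required 10 or more in each library of at least 1 group, together with an average CPM of 1, computed from the deposited values. For the GC correction, each library's deviations from the gene means were smoothed by loess (span 0.3) against the GC percentage of each gene's longest transcript and subtracted, which also removes any effect of treatment that follows GC content. The fits were tested on simulated data. GENCODE M21 (mm10) supplied symbols for 21819 of 21840 rows, transcripts and positions.

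The other alternatives were upper-quartile and total-count scaling, no filter, a pseudocount of 0.1, limma-voom, robust shrinkage, the replicate number as a block and each library left out. The stricter filter with the block or with a library left out, and the GC correction without PBS replicate 2, were chosen after seeing the data. Members and gene lists were chosen with earlier results of these data known. Values are named for Zfp979 and Zfp944, the 6 members with the highest mean, the 6 with the largest difference in each direction among those passing the stricter filter, and the clusters of Zfp979 and Zfp944. For the KRAB cofactors they are named for Trim28, Setdb1 and the 3 genes with the smallest p. Other members named were chosen after their values were seen.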

Additional observations from a re-analysis of the deposited data

How the results depend on the processing

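Over all genes, the 0 calls became 1 with upper-quartile scaling, 24 (21 higher, 3 lower) with total-count scaling, 101 (78 higher, 23 lower) with the stricter filter, 1 with limma-voom and 268 (207 higher, 61 lower) with robust shrinkage. They became 81 (53 higher, 28 lower) with the GC correction, 24 (22 higher, 2 lower) with that correction and the replicate block, and 302 (166 higher, 136 lower) with that correction and the stricter filter. The 0 called members became 5 with the stricter filter, 7 with robust shrinkage, and 3 (Zfp930, Zfp942 and Zfp946) with the GC correction and the stricter filter. With single libraries left out they stayed at 0 under the main filter. Under the stricter filter they were 29 without PBS replicate 1, 15 without PBS replicate 2 and 0 without either rIL17 library, while calls over all genes were 2773, 692 and, without either rIL17 library, 1. The median log2 fold change of the tested members, 1.03, was 0.54 with the GC correction, with or without the block, 0.44 with that correction and the stricter filter, and 0.34 with it and without PBS replicate 2. With single libraries left out it ran from 0.70 to 1.31. The median of PBS replicate 2 minus PBS replicate 1, -0.57 over the 49 tested members, was -0.13 with the GC correction and -0.03 with the stricter filter too. Both rIL17 libraries lay above both PBS libraries in 37 of 49 tested members, and in 31 of 49 with the GC correction. Under the stricter filter this held for 30 of 37 tested members, and for 23 of 37 with the GC correction added. In the other alternatives run, these values kept their direction and lay within the spread between replicates or 1.5 times the count. The labels number both groups alike and name no shared batch, so with 2 pairs the libraries share only a number. Deviations of same-numbered libraries correlated at 0.157 over 12515 genes. The replicate block left 0 calls under the main filter and gave 1032 over all genes and 19 members under the stricter one. Of 941 recomputed log2 fold changes of single members, 43 in 13 members had the other sign. The planned count models on recovered reads were not run. Members with few reads are limited by depth, since 7 were at 0 in at least 1 library.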
